A study of Mus musculus with 8 samples.

Results

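Sertoli cells are the somatic cells of the seminiferous tubule, and 10 genes of proteins they secrete, of factors they supply to the germ cells and of markers of the cell were described here in mouse testis: Clu, Trf, Cst9, Cst12, Gdnf, Kitl, Dhh, Aard, Tsx and Rhox5. They were chosen by gene symbol, for their function, from the 57690 rows of the deposited table, and all 10 had a row. The samples were testes of C57BL/6 mice aged 8 weeks. A group of 4 libraries came from mice given 2 intraperitoneal injections of 200 µg of an antibody that binds PD-L1, a checkpoint ligand that dampens T cells through PD-1, and a group of 4 came from mice given 2 injections of 200 µg of an IgG2b isotype control. Testes were collected 7 days after treatment, and the labels name no genetic change in any group. The labels do not say whether a library was 1 animal or whether the libraries of a group were separate animals, and the p-values therefore reflect the spread of these 8 libraries alone, part or all of which may be technical. Values are in TPM, in which a transcript's reads are divided by its length and expressed against a fixed total for the library. That unit keeps no read depth, so depth is unknown.

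Sertoli cells surround the germ cells, feed them and hold the stem cell niche. They secrete carrier and protective proteins into the tubule, among them transferrin, which carries iron, and clusterin, an extracellular chaperone. They also signal: GDNF sustains spermatogonial stem cells through GFRA1 and RET, KIT ligand acts on the KIT receptor of differentiating spermatogonia, and desert hedgehog acts through PTCH1 on Leydig and peritubular cells outside the tubule. Bulk RNA mixes all these cells, and fewer cells of a type and less RNA per cell cannot be told apart in it.

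Promoter sequences are shown for the 2 cystatin genes among the 10, which lie 41.6 kb apart on chromosome 2. They are also shown for Tsx, an X-linked marker, and for Dhh, the gene with the widest spread among the 9 tested. They are the 250 bases before the RefSeq start site on GRCm38.p6, the assembly also called mm10, written 5′ to 3′ on the strand of the gene. Capitals mark a match on either strand to any of 5 short motifs. They were the TATA box, searched as TATAAA, and the GC box of SP1-type factors, searched as GGGCGG. A core site of SOX factors was searched as AACAAT and a site of GATA factors as AGATAA. The half-site of the androgen response element was searched as AGAACA.
Cst9 (chr2:148834897-148835146, plus strand): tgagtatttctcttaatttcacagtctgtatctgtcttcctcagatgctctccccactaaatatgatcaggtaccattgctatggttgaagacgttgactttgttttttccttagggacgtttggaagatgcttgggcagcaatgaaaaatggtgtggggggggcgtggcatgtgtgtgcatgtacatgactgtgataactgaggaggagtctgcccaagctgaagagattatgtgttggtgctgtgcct
Cst12 (chr2:148789115-148789364, plus strand): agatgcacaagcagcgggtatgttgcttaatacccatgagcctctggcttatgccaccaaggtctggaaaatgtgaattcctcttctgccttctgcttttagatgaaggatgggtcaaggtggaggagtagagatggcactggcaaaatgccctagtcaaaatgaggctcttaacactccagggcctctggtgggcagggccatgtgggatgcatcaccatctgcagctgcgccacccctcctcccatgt
Tsx (chrX:103414217-103414466, plus strand): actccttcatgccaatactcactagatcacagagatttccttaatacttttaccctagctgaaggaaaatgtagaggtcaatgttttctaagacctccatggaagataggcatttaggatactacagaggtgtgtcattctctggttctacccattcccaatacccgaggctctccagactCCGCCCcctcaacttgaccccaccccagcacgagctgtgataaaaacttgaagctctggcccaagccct
Dhh (chr15:98898541-98898790, minus strand): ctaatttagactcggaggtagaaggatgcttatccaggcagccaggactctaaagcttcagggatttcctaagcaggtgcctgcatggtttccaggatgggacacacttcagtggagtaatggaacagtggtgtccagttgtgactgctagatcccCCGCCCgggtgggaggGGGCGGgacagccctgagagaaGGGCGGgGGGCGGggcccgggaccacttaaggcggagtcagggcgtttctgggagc
None of the 5 motifs was found in the Cst9 and Cst12 windows, and Tsx held 1 GC box. Dhh held 4 GC boxes, none of which overlapped another. The GC box was found in 32.7% of the 32851 RefSeq promoter windows of this length. RefSeq windows were found for 7 of the 10 genes, 8 windows in all, since Gdnf had 2. The Kitl window (not printed) held 3 GC boxes, 2 of which overlap, and a TATA box. A TATA box was also in 1 Gdnf window, against 12.4% of all windows. The other Gdnf window held a GATA site, against 9.99% of all windows. The Rhox5 window held a SOX core and an androgen response half-site that overlap, against 9.42% and 16.1% of all windows. That window ends at 37754607 on the X chromosome, while the Rhox5 span of GENCODE M21 starts at 37804842. It was therefore not printed, and its motifs are not shown to lie at the start of that span. A match describes letters and not a site.

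IgG library 4 and anti-PD-L1 library 1 stood apart from the rest across all genes, with median correlations to the other libraries of 0.962 and 0.957, against 0.971 to 0.976 for the other 6. Both libraries are kept in the values unless stated.

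No Sertoli gene differed between the groups by more than the spread of the libraries. Of the 9 genes whose mean reached 1 TPM, 6 had a higher and 3 a lower mean of log2(TPM + 1) after anti-PD-L1, and 0 passed a Benjamini-Hochberg adjusted p of 0.05 in limma, the only tool used across all genes. Over all 20343 genes tested that share was 0% as well. Of these 20343 genes, 11860 were higher and 8483 lower. An unadjusted p under 0.05 was reached by 0 of the 9, against 5.23% (1063) of all tested genes. The groups overlapped for all 10 genes, while 2.99% of all tested genes had groups that did not overlap (1.76% higher and 1.23% lower). The median log2 difference over the 9 was 0.02, against 0.03 over all tested genes, and it ran from -0.04 to 0.11 with 1 library left out. Adjusted p in limma was 0.999 for each of the 9 genes. Two-sided exact permutation tests over the 70 assignments of the libraries, whose smallest p is 0.0286, gave p from 0.514 to 0.943 for the 10 genes. Without both libraries that stand apart, an alternative chosen after seeing the data, 0 of the 9 passed in limma either. The log2 differences were then 0.15 for Clu, 0.07 for Cst9, 0.05 for Cst12, 0.02 for Aard, 0.07 for Tsx, 0.14 for Rhox5, -0.09 for Trf, 0.10 for Dhh and 0.05 for Kitl. Those of Aard, Rhox5, Trf and Dhh had the opposite sign with all 8 libraries. With array quality weights Dhh, Aard and Rhox5 were likewise above 0, at 0.02, 0.06 and 0.16, and Trf was at -0.01.

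**Figure D1:**
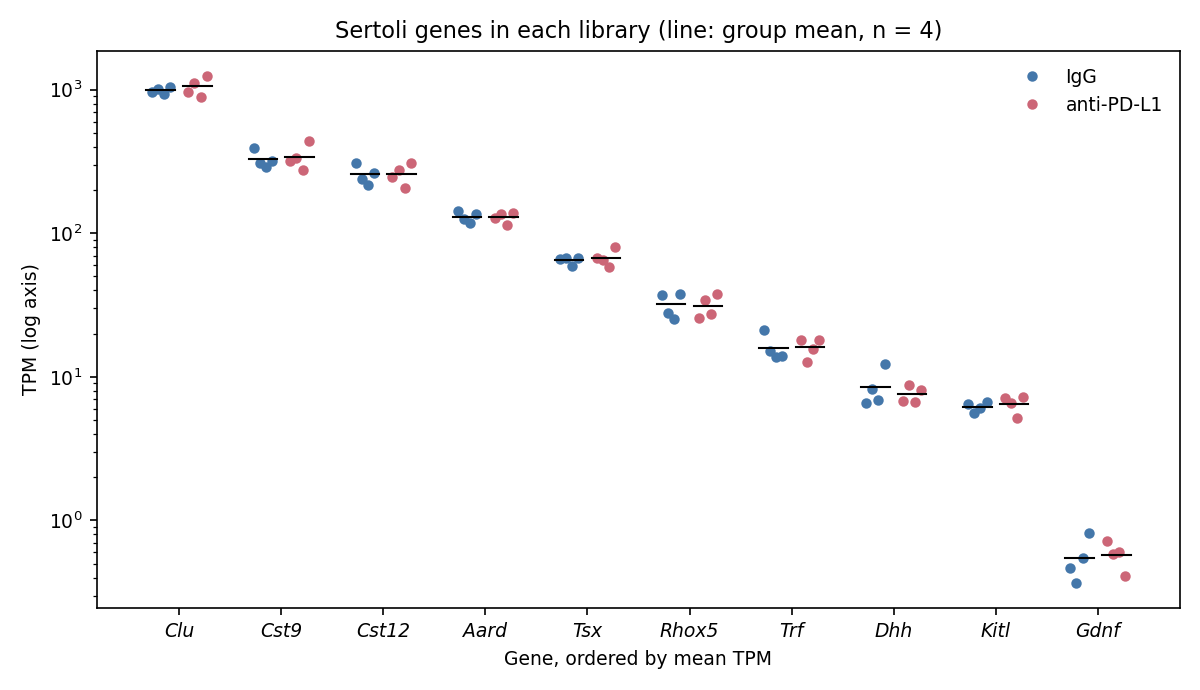
TPM of the 10 Sertoli genes on a log axis, ordered by mean, with a point for each library (blue IgG, red anti-PD-L1) and a line at each group mean. Levels run from about 1020 TPM for Clu to 0.565 TPM for Gdnf, and the groups overlap for every gene.

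The levels formed a wide ladder. Mean TPM over the 8 libraries was 1020.5 for Clu, 334 for Cst9, 259 for Cst12, 130 for Aard, 66.4 for Tsx, 31.6 for Rhox5, 16.1 for Trf, 8.04 for Dhh, 6.36 for Kitl and 0.565 for Gdnf. Clu ranked 91 of the 20343 tested genes by level, Cst9 492 and Kitl 11757. Each gene was above the next one in all 8 libraries except for Dhh and Kitl, where Dhh was above Kitl in 7 of 8. The ranges of neighbouring genes overlapped for Cst9 with Cst12 and for Dhh with Kitl, and for no other neighbours. The secreted proteins and markers thus filled the upper part, and the 3 signalling factors were the 3 lowest.

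The secreted proteins came first. Clu, the gene of clusterin (ENSMUSG00000022037, mm10 chromosome 14, 65968483 to 65981547, plus strand, protein coding), was at 967, 1012, 932 and 1045 TPM in IgG libraries 1 to 4 and at 957, 1121, 887 and 1243 TPM in anti-PD-L1 libraries 1 to 4. The lowest and the highest library were both in the anti-PD-L1 group, and the IgG libraries lay between them. Means were 989 ± 49.8 and 1052 ± 161 TPM (SD, n = 4), a log2 difference of 0.08 (SE 0.10, 95% confidence interval from -0.15 to 0.31). On the TPM + 1 scale that interval runs from a decrease of 9.79% to an increase of 23.6%. Clu is also abundant in the epididymis, and of 7 epididymal markers 4 were listed at 0 in every library, with a summed level of 0 to 0.27 TPM in the IgG group and 0.04 to 0.23 TPM after anti-PD-L1. Of genes for clusterin receptors, Lrp8 was at 19.0 ± 5.80 and 20.01 ± 4.25 TPM (SD, n = 4; log2 difference 0.09), and Lrp2 and Vldlr were under the filter.

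Trf, the gene of transferrin (ENSMUSG00000032554, chromosome 9, 103204001 to 103230444, minus strand), was at 21.2, 15.03, 13.8 and 13.97 TPM in IgG libraries 1 to 4 and at 18.0, 12.7, 15.5 and 18.2 TPM in the anti-PD-L1 libraries. IgG library 1 was the highest of all 8, and the groups overlapped. The means were 16.0 ± 3.49 and 16.1 ± 2.57 TPM (SD, n = 4), a log2 difference of 0.02 (SE 0.16, 95% interval from -0.34 to 0.38). The 7 adipocyte markers summed to 93.5 TPM in that same IgG library, to 32.0 TPM in IgG library 3 and to between 6.83 and 12.0 TPM in the other 6 libraries. Their part in the Trf value was not tested. Without IgG library 1, Trf differed by 0.15.

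Of 10 genes of transferrin uptake and iron handling, all were tested, 7 were higher and 3 lower, and 0 passed (0% of all tested genes), with a median log2 difference of 0.06. Tfrc, the transferrin receptor, was at 7.21 ± 1.47 and 6.86 ± 0.801 TPM (SD, n = 4), a log2 difference of -0.05 (SE 0.15). Slc11a2, an iron transporter of the endosome, differed by 0.27 (SE 0.14) and Ireb2, an iron-sensing RNA-binding protein, by 0.15 (SE 0.14). Neither passed, at an adjusted p of 0.988 and 0.999 in limma with Benjamini-Hochberg adjustment.

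Cst9, also called testatin, and Cst12 encode secreted proteins of the cystatin family, relatives of inhibitors of cysteine proteases. They lie 41.6 kb apart on the plus strand of chromosome 2, Cst12 (ENSMUSG00000027443) from 148789361 to 148793546 and Cst9 (ENSMUSG00000027445) from 148835147 to 148838738. Cst9 was at 391, 309, 291 and 316 TPM in IgG libraries 1 to 4 and at 320, 335, 275 and 438 TPM in the anti-PD-L1 libraries. Cst12 was at 310, 237, 217 and 265 TPM and at 248, 275, 208 and 310 TPM. For both genes anti-PD-L1 library 3 was the lowest, and IgG library 1 and anti-PD-L1 library 4 were the 2 highest. The log2 differences were 0.05 (SE 0.14) for Cst9 and 0.02 (SE 0.14) for Cst12, with 95% intervals from -0.27 to 0.38 and from -0.30 to 0.33.

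The ratio of Cst9 to Cst12 within a library stayed between 1.19 and 1.41 over the 8 libraries, with means of 1.28 ± 0.0636 and 1.31 ± 0.0811 (SD, n = 4). The log2 ratio differed by 0.04 between the groups (two-sided exact permutation p = 0.514, adjusted 0.80 over 6 ratios between genes, all chosen after the values were seen). Of 9 other cystatin genes listed, 5 were tested, all 5 were lower and 0 passed, with a median log2 difference of -0.12. At an unadjusted p under 0.05 there were 3 of the 5, while 2.22% of all tested genes were under it and lower. Cst13 was at 171 ± 2.00 TPM in the IgG group and 147 ± 12.2 TPM in the anti-PD-L1 group (SD, n = 4), with no overlap between them, and differed by -0.22 (SE 0.06). Groups without overlap and lower after anti-PD-L1 were found for 1.23% of all tested genes. Cst8 was at 433 ± 9.77 and 398 ± 22.4 TPM (SD, n = 4) and differed by -0.12 (SE 0.05). Cstl1, a cystatin-like gene outside the naming rule and chosen after its value was seen, differed by -0.25 (SE 0.10). Adjusted p in limma was 0.657, 0.883 and 0.886. Cst8 is known from spermatids and the epididymis, and all 8 elongating spermatid markers listed were lower as well (median -0.15). Their part in the cystatin values was not tested. Whether Cst13 and Cst9 differ in their response was not tested.

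The niche factors were the least abundant. Kitl, the gene of KIT ligand (ENSMUSG00000019966, chromosome 10, 100015630 to 100100416, plus strand), was at 6.52, 5.56, 6.04 and 6.66 TPM in IgG libraries 1 to 4 and at 7.09, 6.55, 5.17 and 7.28 TPM in the anti-PD-L1 libraries. The lowest and the highest libraries were again in the anti-PD-L1 group. Means were 6.20 ± 0.50 and 6.52 ± 0.953 TPM (SD, n = 4), a log2 difference of 0.06 (SE 0.12, 95% interval from -0.22 to 0.33). KIT ligand exists as a membrane-bound and a shed form, which a value per gene does not separate. Kit, its receptor, was at 9.63 ± 1.87 and 10.4 ± 0.949 TPM (SD, n = 4) and differed by 0.11 (SE 0.13). Of 8 genes of KIT signalling, 7 were tested, 6 were higher and 1 lower, and 0 passed, with a median of 0.09. Grb2 and Cbl, an adaptor and a ubiquitin ligase of receptor kinases, differed by 0.18 and 0.13. The ratio of Kitl to Kit was 0.656 ± 0.0988 and 0.627 ± 0.0754 (SD, n = 4; two-sided exact permutation p = 0.657, adjusted 0.80 over 6 ratios).

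Gdnf (ENSMUSG00000022144, chromosome 15, 7810846 to 7837575, plus strand) was at 0.47, 0.37, 0.55 and 0.82 TPM in IgG libraries 1 to 4 and at 0.72, 0.58, 0.60 and 0.41 TPM in the anti-PD-L1 libraries. With a mean under 1 TPM it did not enter the fit across genes, and its log2 difference was 0.03 (two-sided exact permutation p = 0.80), or from -0.03 to 0.11 with 1 library left out. The groups overlapped, and both ends of the range lay in the IgG group. The receptor Gfra1 was at 2.94 ± 0.619 and 2.89 ± 0.209 TPM (SD, n = 4), a log2 difference of -0.01 (SE 0.14). Ret, the signalling partner of GFRA1, ranged from 0.41 to 0.79 TPM in the IgG libraries and from 0.42 to 0.70 TPM after anti-PD-L1. It did not enter the fit across genes either (two-sided exact permutation p = 0.971). Of 8 genes of GDNF signalling, 6 were tested, 3 were higher and 3 lower, 0 passed, and the median was -0.003. Etv5 and Lhx1, transcription factors that GDNF induces in stem spermatogonia, differed by 0.04 and -0.06.

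Dhh, the gene of desert hedgehog (ENSMUSG00000023000, chromosome 15, 98891152 to 98898540, minus strand), was at 6.59, 8.22, 6.90 and 12.3 TPM in IgG libraries 1 to 4 and at 6.75, 8.76, 6.70 and 8.10 TPM in the anti-PD-L1 libraries. IgG library 4 was the highest, and the other 7 libraries lay between 6.59 and 8.76 TPM. Means were 8.51 ± 2.64 and 7.58 ± 1.02 TPM (SD, n = 4), a log2 difference of -0.12 (SE 0.18, 95% interval from -0.54 to 0.30). Without IgG library 4 it was 0.06. Of 15 hedgehog pathway genes, 8 were tested, 7 were higher and 1 lower, 0 passed, and the median was 0.10. Over all tested genes, 11860 were higher and 8483 lower.

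Ptch1, the hedgehog receptor and itself a target of the pathway (ENSMUSG00000021466, chromosome 13, 63508328 to 63573598, minus strand), had the largest difference of the 8. It was at 3.21, 3.38, 3.47 and 5.57 TPM in IgG libraries 1 to 4 and at 5.19, 7.83, 5.66 and 6.03 TPM in the anti-PD-L1 libraries. Only IgG library 4 reached into the anti-PD-L1 range. The log2 difference was 0.56 (SE 0.18, 95% interval from 0.16 to 0.96), and limma gave an adjusted p of 0.716 (unadjusted 0.0118). Sufu, an inhibitor of the pathway, differed by 0.12. Gli1, a transcription factor and target of the pathway, had a mean under 1 TPM and was at 1.63 TPM in IgG library 4 and 1.79 TPM in anti-PD-L1 library 1, while the other 6 libraries lay between 0.46 and 0.83 TPM. Hhip, another target, ranged from 0.20 to 0.38 TPM over the 8 libraries. Neither Gli1 nor Hhip was tested. The 2 libraries high in Gli1 are those that stand apart across all genes, and their part in its level was not tested.

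The ratio of Dhh to Ptch1, chosen after the values of Ptch1 were seen, was 2.05, 2.43, 1.99 and 2.21 in IgG libraries 1 to 4 and 1.30, 1.12, 1.18 and 1.34 in the anti-PD-L1 libraries. All 4 anti-PD-L1 libraries were below all 4 IgG libraries. The log2 ratio differed by -0.81, and the two-sided exact permutation test gave p = 0.0286, the smallest that 70 assignments allow, or 0.171 adjusted over the 6 ratios computed. The other ratios had a permutation p of 0.514 or more, so this adjusted p could not have been smaller at any size of difference. That it did not pass therefore decides nothing. A ratio within a library does not show which of its 2 genes changed. Taken singly, Dhh differed by -0.12 and Ptch1 by 0.56, and neither passed in limma. IgG library 4 was the highest IgG library for both, at 12.3 and 5.57 TPM, and did not stand apart in the ratio.

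**Figure D2:**
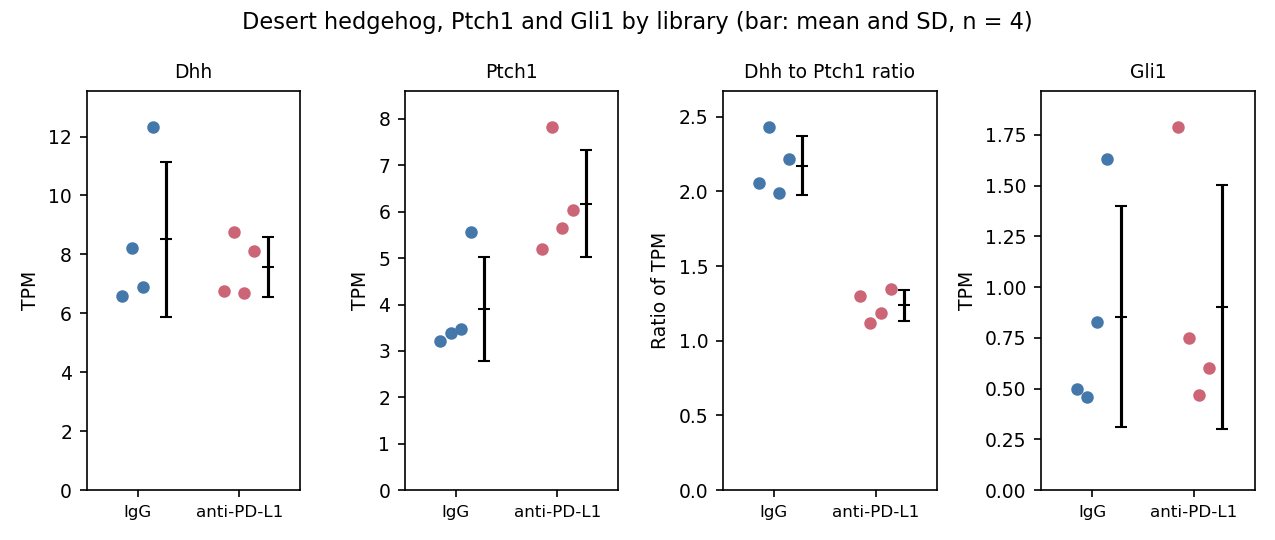
TPM of Dhh, Ptch1 and Gli1 and the Dhh to Ptch1 ratio of TPM, with a point for each library and the mean ± SD (n = 4) of each group. The ratio lies between 1.99 and 2.43 in the IgG libraries and between 1.12 and 1.34 in the anti-PD-L1 libraries. Dhh, Ptch1 and Gli1 each overlap, Ptch1 through IgG library 4 at 5.57 TPM against an anti-PD-L1 minimum of 5.19 TPM.

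The remaining genes are markers of the cell. Aard, a gene of testis named for an alanine and arginine rich domain (ENSMUSG00000068522, chromosome 15, 52040107 to 52045722, plus strand), was at 143, 125, 117 and 135 TPM in IgG libraries 1 to 4 and at 128, 136, 114 and 138 TPM in the anti-PD-L1 libraries. The groups covered nearly the same range. Its log2 difference was -0.01 (SE 0.08), and the 95% interval from -0.19 to 0.18, or from a decrease of 12.4% to an increase of 13.1% on the TPM + 1 scale, was the narrowest of the 9. Tsx, a gene beside the X inactivation centre (ENSMUSG00000031329, X chromosome, 103414467 to 103424580, plus strand), was at 66.0, 67.8, 59.5 and 67.0 TPM in IgG libraries and at 66.8, 64.7, 58.6 and 80.8 TPM in anti-PD-L1 libraries 1 to 4. Anti-PD-L1 library 4 was the highest, and the log2 difference was 0.05 (SE 0.10). Its listed neighbours Chic1, Cdx4, Ftx and Jpx were all under the filter, with summed levels from 0.87 to 2.55 TPM.

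Rhox5, an X-linked homeobox gene known to respond to androgen in Sertoli cells (ENSMUSG00000095180, X chromosome, 37804842 to 37808876, plus strand), was at 37.5, 27.7, 25.1 and 37.9 TPM in IgG libraries 1 to 4 and at 25.6, 34.3, 27.4 and 37.6 TPM in the anti-PD-L1 libraries. Both groups held libraries at about 25 and at about 38 TPM. Its log2 difference was -0.03 (SE 0.17, 95% interval from -0.41 to 0.35). Rhox8, another Rhox gene of Sertoli cells, was at 18.4 ± 1.62 and 19.1 ± 3.66 TPM (SD, n = 4). The ratio of Rhox5 to Rhox8 was 1.75 ± 0.367 and 1.64 ± 0.0976 (SD, n = 4; two-sided exact permutation p = 0.714, adjusted 0.80 over 6 ratios). Of 14 other Rhox genes, 6 were tested, 3 were higher and 3 lower, and 0 passed. Rhox2a and Rhox11 differed by -0.15 and 0.08, and near-identical copies in this cluster make the value of Rhox2a uncertain.

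**Figure D3:**
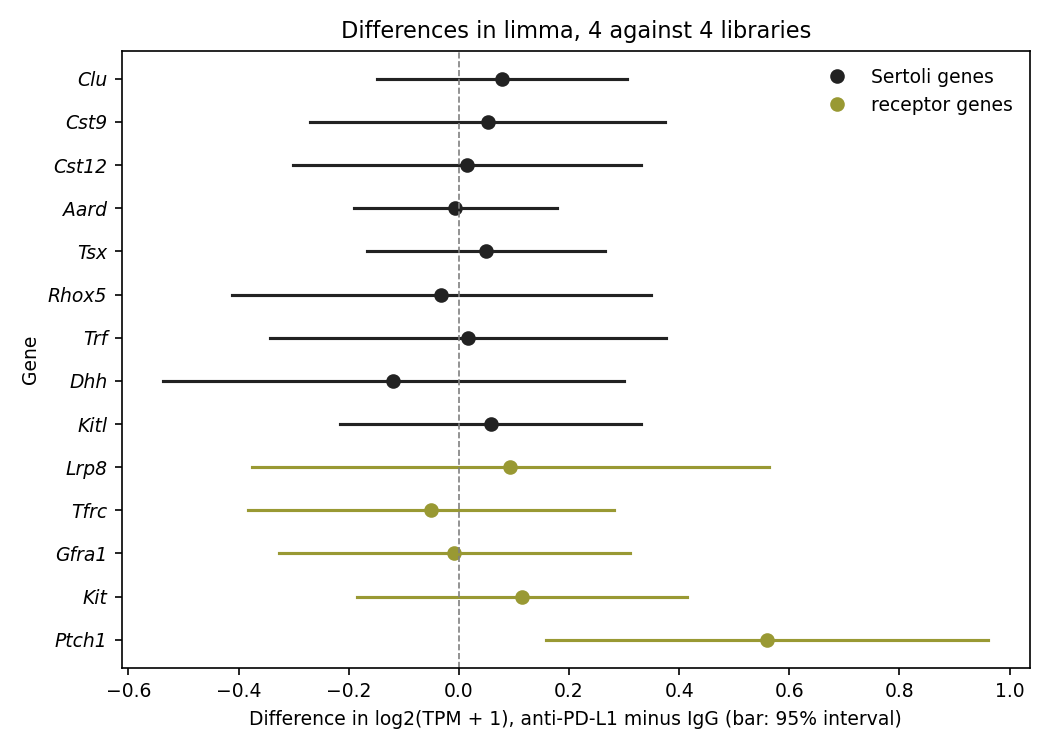
Differences in log2(TPM + 1), anti-PD-L1 minus IgG, for the 9 tested Sertoli genes and for receptor genes, with 95% intervals from limma. Each interval of the Sertoli genes spans 0. That of Ptch1 runs from 0.16 to 0.96, without adjustment for the number of genes, and its adjusted p in limma was 0.716.

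The values were also read by library. Anti-PD-L1 library 3 was the lowest library for 6 of the 10 genes and anti-PD-L1 library 4 the highest for 4. All 9 tested genes were above their mean over the 8 libraries in anti-PD-L1 library 4, and 0 of 9 were in anti-PD-L1 library 3 and in IgG library 3. Gdnf, outside the 9, was low in anti-PD-L1 library 4, at 0.41 TPM. Trf had its lowest value in anti-PD-L1 library 2, where 7 of the 9 were above their mean. The 10 genes summed to 1949, 1808, 1668 and 1900 TPM in IgG libraries 1 to 4 and to 1778, 1996, 1598 and 2281 TPM in the anti-PD-L1 libraries, or 0.16% to 0.228% of all TPM. The 21 Sertoli genes of the comparison list, none of them among the 10, summed to between 1023 and 1192 TPM in the IgG group and between 969 and 1350 TPM after anti-PD-L1. Their lowest and highest libraries were the same 2 anti-PD-L1 libraries, 3 and 4. The pattern was not particular to Sertoli genes. Sums of spermatocyte markers (839 TPM), iron genes (753 TPM) and KIT signalling genes (90.9 TPM) were also highest in anti-PD-L1 library 4. The sum of elongating spermatid markers was lowest there. The share of all tested genes above their mean in each library was not computed.

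**Figure D4:**
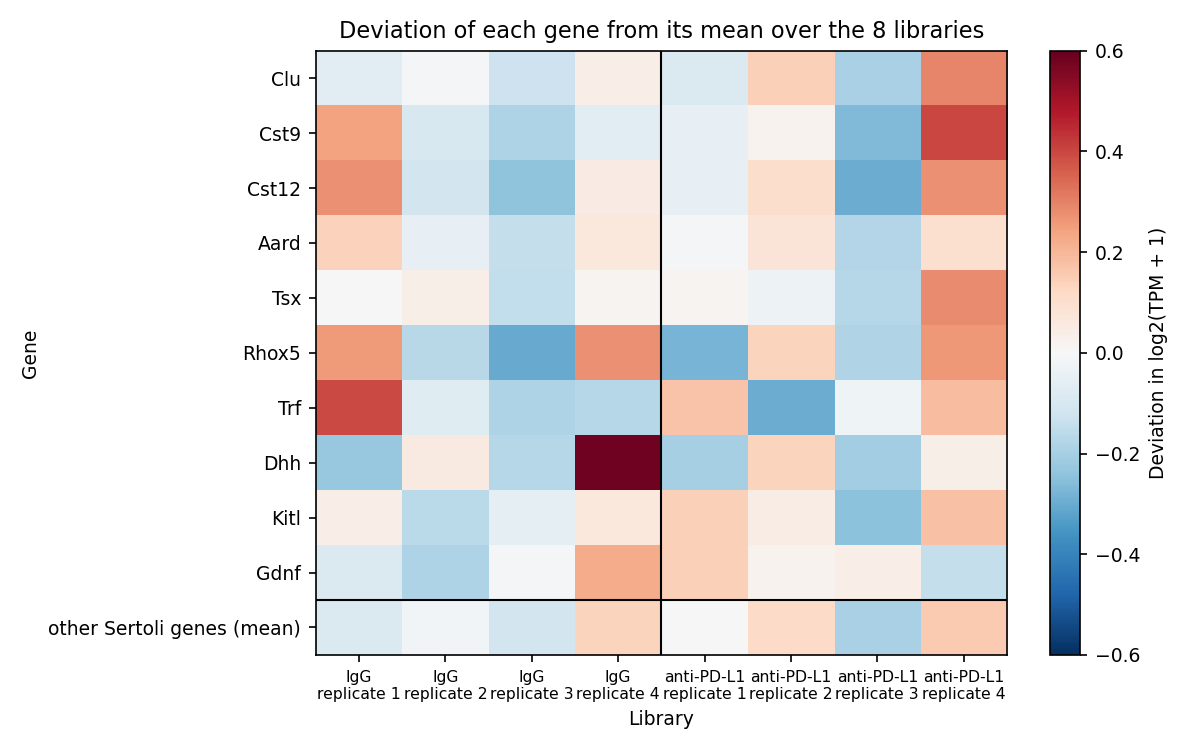
Deviation of each Sertoli gene from its own mean over the 8 libraries, in log2(TPM + 1), with the mean of 20 other Sertoli genes in the bottom row. Blue (low) fills most of IgG library 3 and anti-PD-L1 library 3 and red (high) most of anti-PD-L1 library 4, with Gdnf below its mean there.

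Centring each library on the mean of the 20 other tested Sertoli genes narrowed the spread within groups for 8 of the 9 genes. Over all 20343 tested genes, the median SE in limma was 0.137 before and 0.147 after centring. That SE is not the SD counted for the 9, and the share of all tested genes that narrowed was not computed. For Clu the pooled SD within groups went from 0.16 to 0.07 in log2 units, for Tsx from 0.15 to 0.10 and for Kitl from 0.15 to 0.11. Trf was the exception, with 0.25 before and 0.31 after. After centring, 4 genes were higher and 5 lower, with log2 differences from -0.16 for Dhh to 0.04 for Clu, 0 passed in limma, and the groups still overlapped for all 10. With TMM rescaling and after centring, Trf and Cst12 took negative values, between -0.01 and -0.03.

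Among 116 tested genes of the comparison lists, those most like each Sertoli gene over the 8 libraries, with group means removed, are given as a description. All share the fixed TPM total, and the highest of many correlations over 8 points is high by selection. Clu was closest to Amhr2, the AMH receptor (r = 0.98, rho = 0.98), and to Ctsl, a secreted protease of Sertoli cells (r = 0.98, rho = 0.98). Without the 2 libraries farthest from the Clu median, r was 0.96 and 0.95. Cst9, Cst12, Aard and Rhox5 each had Etd, a gene of the comparison list of Sertoli genes, among their 2 nearest, with r of 0.96, 0.96, 0.90 and 0.84 (rho 0.98, 0.98, 0.98 and 0.76), or 0.92, 0.94, 0.89 and 0.82 without the 2 farthest libraries. The other nearest genes were Sycp3 for Cst9 (r = 0.93, rho = 0.93), Smo for Cst12 and Aard (r = 0.92 for both, rho = 0.90 for both) and Sycp1 for Rhox5 (r = 0.88, rho = 0.86). Of these, Sycp3 was at r = 0.60 without the 2 farthest libraries, so that likeness rests on them, and the others stayed between 0.79 and 0.86.

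Tsx was closest to Gata4 (r = 0.92, rho = 0.86) and to Zbtb16, a spermatogonial gene (r = 0.91, rho = 0.93), and Dhh to Ireb2 (r = 0.94, rho = 0.86) and Sox9, the Sertoli transcription factor (r = 0.93, rho = 0.88). Without the 2 farthest libraries these 4 were 0.83, 0.87, 0.81 and 0.75. Kitl was closest to Tfr2 (r = 0.92, rho = 0.90, or 0.91 without the 2 farthest) and Hsd3b6 (r = 0.88, rho = 0.69, or 0.42). For Trf the nearest genes were the macrophage gene C1qb (r = 0.81, rho = 0.76) and the spermatocyte gene Hormad1 (r = 0.76, rho = 0.48), at 0.63 and 0.65 without the 2 farthest libraries.

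The other Sertoli genes were read in the same fit. Of 21 listed, 20 were tested, 15 were higher and 5 lower, 0 passed, 0 had an unadjusted p under 0.05, and the median log2 difference was 0.04. The defining transcription factors Sox9, Wt1 and Gata4 were at 4.82, 30.5 and 18.0 TPM in the IgG group and at 5.28, 30.8 and 18.6 TPM after anti-PD-L1, so the markers of the cell were present in both. Amh, the anti-Müllerian hormone gene, differed by 0.32 (SE 0.18) and Defb36, a defensin gene, by -0.16 (SE 0.09), at an adjusted p of 0.999 in limma for both.

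Markers of other cells of the testis were read in the same fit, and 0 passed in any list. The counts by direction stand beside 11860 higher and 8483 lower over all tested genes. Leydig cell markers were higher in 4 of 8 and lower in 4, with log2 differences from -0.26 to 1.30 and a median of 0.08. Their sum was 1221 to 1596 TPM in the IgG group and 2194 to 3474 TPM after anti-PD-L1. The gap between the sums came mostly from 1 gene, Insl3, and does not describe the list as a whole. Insl3 was at 874 ± 106 and 2210.3 ± 656 TPM (SD, n = 4), with a log2 difference of 1.30 (limma, adjusted p = 0.202). Fdx1 differed by 0.57. Peritubular myoid markers were lower in 5 of 5 (Acta2 by -0.08, Tagln by -0.13) and endothelial markers in 4 of 5 (Vwf by -0.27, Pecam1 by -0.17). Macrophage markers were higher in 4 of 6 (C1qb by 0.16, Csf1r by -0.19), and adipocyte markers were lower in 5 of 5 tested (Adipoq by -0.52, Fabp4 by -1.67, or by -0.94 without IgG library 1). Spermatogonial markers were higher in 4 of 8 (Id4 by 0.40), spermatocyte markers in 6 of 6 (Meiob by 0.15, Piwil1 by 0.09) and round spermatid markers in 5 of 6 (Spaca1 by 0.30, Lyzl6 by 0.17). Elongating spermatid markers (Prm1 and Tnp1, both by -0.21, or by -0.018 and -0.052 after quantile normalization) summed to between 59409 and 74749 TPM in the IgG group and between 56653.5 and 64543 TPM after anti-PD-L1. Their sum was highest in IgG library 3, where all 9 Sertoli genes were under their mean, and lowest in anti-PD-L1 library 4, where all 9 were above it. Other libraries broke that order. Anti-PD-L1 library 3, with 0 of 9 above, was at 64543 TPM, under IgG library 1 at 68176 TPM, with 6 of 9 above. The part of the elongating spermatid sum in the values of the Sertoli genes was not tested.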

How the data were processed

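The authors deposited TPM per gene for 8 testis libraries, 4 per group, with their group means and a gene length, per the file headers. Per the labels' protocols, TRIzol RNA was cleared of DNA with DNase I and went into Illumina TruSeq libraries. RSEM, StringTie, HISAT2, CASAVA 1.8 and the build mm10 are named per the submitters' processing notes. Which tool did which step, the annotation used and the handling of strand are not given. Each library summed to about 1000000 TPM, so an increase in abundant transcripts takes TPM from the rest.

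Groups came from the sample titles. For a symbol on several rows, the row with the larger mean was read. Values were taken as log2(TPM + 1), with a pseudocount of 1, and the 20343 genes whose mean reached 1 TPM were fitted with limma 3.58.1 (R 4.3.3), with an intensity trend and Benjamini-Hochberg adjustment over all of them at 0.05. The code was tested on simulated data. Exact permutation tests used scipy 1.17.1 in Python 3.11.15. Coordinates are from GENCODE M21 on mm10 and promoters from RefSeq on GRCm38.p6. The 10 genes and the comparison lists were chosen with earlier results of these data known.

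Genes named were the 10, their direct receptors and targets (Tfrc, Gfra1, Ret, Kit, Ptch1, Gli1, Hhip), the 2 genes with the smallest p of each list, and the 2 genes of the lists most correlated with each of the 9 tested. Cstl1, Lrp2, Vldlr, Rhox8, Sox9, Wt1, Gata4 and the neighbours of Tsx were named outside that rule. The alternatives were another pseudocount (0.1), omission of the filter, a stricter one at 5 TPM, quantile normalization, TMM rescaling (30% of M and 5% of A values trimmed), centring on other Sertoli genes, omission of the trend, array quality weights, the replicate block and each library left out. Leaving out both libraries that stand apart, and the 6 ratios between genes, were chosen after seeing the data.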

Additional observations from a re-analysis of the deposited data

Results flagged for a closer look

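Of 126 groups of 4 libraries examined for the named genes, 5 held a library far from the other 3 by Dixon's criterion, which chance meets in about 1 in 20 groups. Trf was at 21.2 TPM in IgG library 1, with the other IgG libraries between 13.83 and 15.03 TPM. Ptch1 was at 5.57 TPM in IgG library 4, with the others between 3.21 and 3.47 TPM. Ireb2 was at 41.8 TPM in the same library, with the others between 26.5 and 28.5 TPM. Sycp3 was at 263 TPM in anti-PD-L1 library 4, with the others between 202 and 211 TPM. Wt1 was at 25.4 TPM in anti-PD-L1 library 3, with the others between 32.2 and 33.1 TPM.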

How the results depend on the processing

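None of the 1053 values of the 59 tested genes named, under the other settings, passed an adjusted p of 0.05 in limma. Over all genes, 1 passed with a pseudocount of 0.1, 5 with array quality weights and 8 without both libraries that stand apart; leaving out single libraries gave 0 to 15, with 15 without IgG library 4, 3 without anti-PD-L1 library 4 and 1 each without IgG library 2 and anti-PD-L1 library 1. With the replicate block 0 passed, and the block changed no other call; the same-numbered libraries correlated at -0.11, 0.10, 0.09 and -0.20 after removal of group means, so the numbers were not taken to pair them. At an unadjusted p under 0.05, 611 genes were higher and 452 lower, against 524 and 596 after quantile normalization, 481 and 530 after TMM rescaling and 286 and 371 after centring on Sertoli genes. They were 1371 and 784 with array quality weights, 1281 and 580 without IgG library 4 and 1337 and 672 without both libraries that stand apart. The causes were not tested.

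The median over the 9 Sertoli genes was -0.012 after TMM rescaling, -0.024 after centring and 0.11 with array weights. The sign turned for 20 of the 59 tested genes under at least 1 setting. Trf was at -0.020 after quantile normalization, -0.012 after TMM rescaling, -0.024 after centring, -0.010 with array weights and -0.092 without both libraries. Cst12 was at -0.015 after TMM rescaling and -0.026 after centring, and Etv5 at -0.0016 after centring. Rhox8 was at -0.0025 after quantile normalization and -0.0033 after centring. Wt1 was at -0.021, -0.0083 and -0.020 after quantile normalization, TMM rescaling and centring. Array weights gave 0.024 for Dhh, 0.063 for Aard, 0.16 for Rhox5, 0.042 for Tfrc, 0.092 for Gfra1 and 0.017 for Rhox2a. Without both libraries the values were 0.10 for Dhh, 0.016 for Aard, 0.14 for Rhox5, 0.12 for Gfra1 and 0.011 for Rhox2a, and the log2 ratios were -0.076 for Trf to Tfrc, 0.077 for Rhox5 to Rhox8 and -0.15 for Kitl to Kit. Leaving out 1 library at a time gave -0.0059 to 0.16 for Clu, -0.043 to 0.15 for Trf, -0.073 to 0.15 for Cst9, -0.073 to 0.12 for Cst12, -0.21 to 0.056 for Dhh, -0.055 to 0.051 for Aard, -0.038 to 0.11 for Tsx, -0.14 to 0.055 for Rhox5 and 0.0083 to 0.15 for Kitl. The ranges were -0.16 to 0.044 for Tfrc, -0.076 to 0.091 for Gfra1, -0.027 to 0.27 for Lrp8, -0.0082 to 0.088 for Etv5, -0.29 to -0.022 for Rhox2a, -0.0027 to 0.21 for Ctsl, -0.038 to 0.17 for Etd, -0.0092 to 0.10 for Gata4, -0.0069 to 0.20 for Sycp1, -0.064 to 0.13 for Rhox8, -0.037 to 0.12 for Wt1 and -0.066 to 0.23 for Rhox11, with Rhox11 at 0.35 without both. For the log2 ratios they were -0.15 to 0.022 for Kitl to Kit, -0.091 to 0.19 for Trf to Tfrc, -0.057 to 0.26 for Gdnf to Gfra1 and -0.17 to 0.045 for Rhox5 to Rhox8, while Dhh to Ptch1 stayed between -0.85 and -0.76. Of the 59 tested genes, 46 turned sign or moved by over 1.5 times with 1 library left out, among them 0.030 to 0.23 for Kit, 0.027 to 0.28 for Grb2, 0.061 to 0.19 for Cbl, 0.042 to 0.18 for Sufu and -0.24 to -0.016 for Tagln. Genes outside the fit that turned sign ran from -0.030 to 0.11 for Gdnf, -0.031 to 0.084 for Ret, -0.17 to 0.21 for Gli1 and -0.067 to 0.0002 for Hhip. TPM gives no depth, so what the read counts could resolve is unknown.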
